A study of Homo sapiens with 6 samples.

Results

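The genes described here are 32 androgen receptor target genes and lineage cofactors of the prostate, measured by RNA-seq in 22Rv1 cells. They were chosen as the rows of the deposited count table that carry the 32 listed symbols, out of 29804 symbols in all, and the list does not include the receptor gene itself. 22Rv1 is a human prostate carcinoma epithelial line that was derived from a xenograft and is known for growing without added androgen. WT cells were untreated and were harvested at time 0. AM (age matched) cells were untreated and were kept in culture for 6 weeks, and 6WP cells were kept for the same 6 weeks with phleomycin, a radiomimetic that breaks DNA, at 1 µg/ml for 1 hour on each week day. All 3 groups were of WT genotype and were grown in RPMI with FBS, and the labels name no androgen, androgen deprivation or receptor antagonist in any group. Each group had 2 libraries that the labels call biological replicates. All libraries come from 1 cell line, the labels give no separate cultures beyond the word biological, and p-values therefore measure only the spread between these libraries.

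The androgen receptor is a nuclear hormone receptor that is held in a chaperone complex until it binds testosterone or dihydrotestosterone. It then enters the nucleus and binds response elements, each an inverted repeat of a hexamer, mostly in enhancers that the pioneer factor FOXA1 has opened. In luminal prostate cells it drives secreted proteases of the kallikrein family, cell surface proteins used as imaging and antibody targets, and feedback genes that limit steroid signalling. 22Rv1 cells are also known to make shortened receptor forms that lack the hormone-binding domain and act without hormone.

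Total counts lay between 21222201 and 35311945 per library, and the floor of 3 counts equalled between 0.0883 and 0.138 CPM, where CPM is the count scaled to a common library size with TMM, the trimmed mean of M-values. Intervals and floors of this kind cover counting error only. Of the 32 members, 30 passed the filter on low counts and were tested among 14672 genes with edgeR's quasi-likelihood test, with p-values adjusted over all of these genes by the Benjamini-Hochberg method. Errors of log2 fold changes are standard errors. Summed markers of luminal epithelium lay between 1224 and 1507 CPM in every library, while those of basal epithelium did not exceed 0.589 CPM, with KRT5, KRT17 and DSG3 at 0 counts. Markers of blood and endothelium summed to at most 3.66 CPM, with PTPRC, CD3E and CDH5 at 0 counts, and those of stroma to at most 10.3 CPM, with DES at 0 counts. The 6WP replicates were further apart than the other pairs. Over members, the median SD on the log2 scale was 0.0829 for WT, 0.111 for AM and 0.309 for 6WP cells, against 0.0854, 0.0911 and 0.196 over all tested genes. With 2 libraries against 2, an exact two-sided permutation test cannot go below p = 0.333, and significance rests on the model. In bulk RNA, fewer cells that express a gene and less RNA per cell cannot be told apart.

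More members were called in the comparisons that include AM cells than in 6WP against WT cells. Between AM and WT cells 9 of the 30 tested members passed an adjusted p of 0.05, which is 30% of them, where 17.7% of all tested genes passed. Of these, 2 were higher in AM cells (7.74% of all genes) and 7 were lower (9.93% of all genes). Between 6WP and AM cells 13 members passed (43.3%), where 21.3% of all genes did, with 8 members higher in 6WP cells (11.7% of all genes) and 5 lower (9.68% of all genes). Between 6WP and WT cells 1 member passed (3.33%), where 3.00% of all genes did. This was ADAMTS1, which was lower (1.37% of all genes were lower), and 0 members were higher (1.63% of all genes were higher). At an unadjusted p under 0.05, 6WP cells had 3 members above and 9 below their level in WT cells. The share of all genes at this unadjusted threshold was not counted. The Wald test of DESeq2 and edgeR's exact and likelihood ratio tests each called 1 member higher and 5, 4 and 4 lower. These calls are 20%, 16.7% and 16.7% of the members, beside 7.66%, 9.67% and 10.2% of all genes. The members' median log2 fold change was -0.11 in AM against WT, 0.06 in 6WP against AM and -0.13 in 6WP against WT cells, beside 0.00, 0.05 and 0.01 over all tested genes. The libraries of each group enter 2 of the 3 comparisons, so the calls of the 3 comparisons are not independent of each other.

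These counts depended on single libraries, with 31 members passing the filter once a library was left out. In AM against WT cells, 1 member was called without WT replicate 1, without WT replicate 2 or without AM replicate 1, 2 without AM replicate 2, and 17 with either 6WP library left out. In 6WP against AM cells the number fell when any one of the AM or WT libraries was left out. It rose when either 6WP library was left out, and the share of all genes called fell and rose in the same fits. In 6WP against WT cells it was 0 without any one of the WT or AM libraries, 13 without 6WP replicate 1 and 14 without 6WP replicate 2, where 25.2% and 25.97% of all genes were called. The share of all tested genes moved as well, for example from 17.7% to 0.534% called in AM against WT cells without WT replicate 1 and to 43.9% without 6WP replicate 1. When 6WP and AM cells were fitted on their own, 5 members were called (16.7%, beside 9.07% of all genes), namely FOLH1, STEAP1, SLC45A3, NCAPD3 and CENPN, and the other 8 were not. When AM and WT cells were fitted on their own, 17 were called (56.7%, beside 46.5% of all genes).

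**Figure D1:**
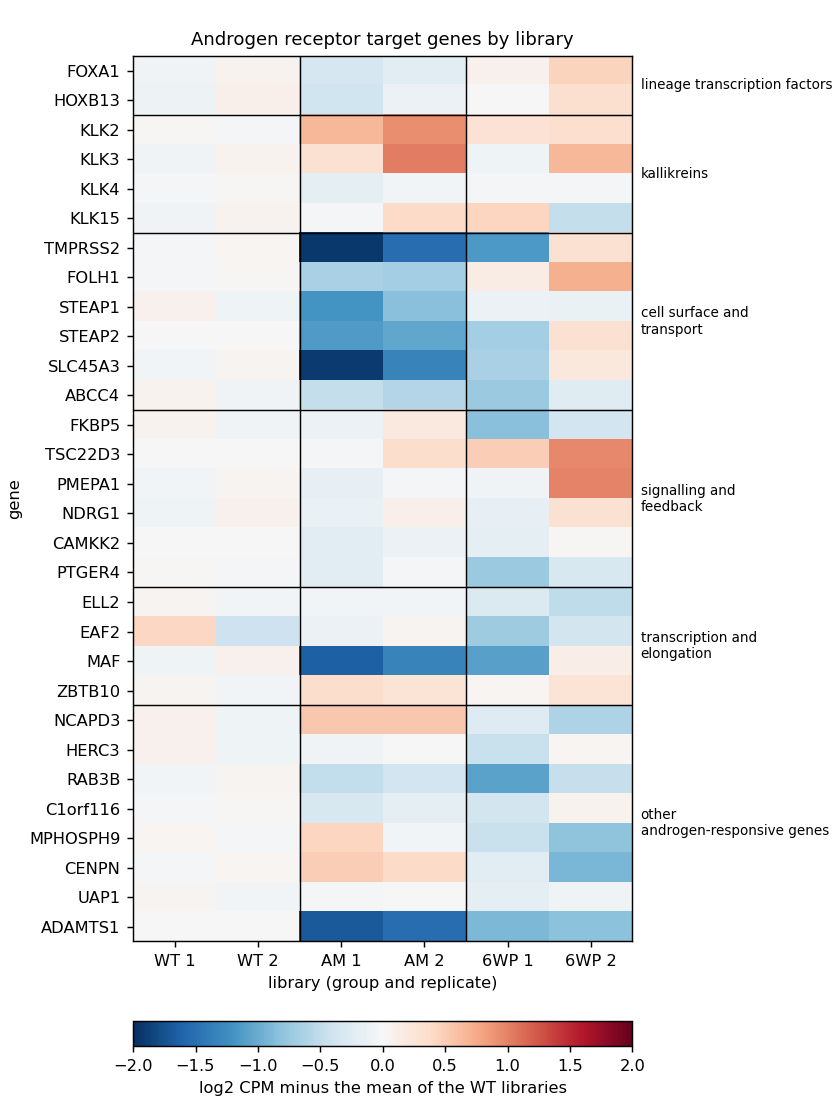
Log2 CPM of the 30 tested members (rows, grouped by role) in the 6 libraries (columns), as the difference from the mean of the WT libraries, with red for higher and blue for lower. The AM columns are darkest blue at TMPRSS2, SLC45A3, ADAMTS1 and MAF and red at KLK2 and KLK3, and the 6WP columns differ from each other at TMPRSS2, MAF and PMEPA1.

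Among the lineage transcription factors, FOXA1 was higher in 6WP than in AM cells, whereas HOXB13 did not pass the test in any comparison. FOXA1 opens chromatin for the receptor and lies at chr14:37589552-37596059 (GRCh38, minus strand). It had 419 and 462 CPM in WT, 350.1 and 382 CPM in AM and 465 and 599 CPM in 6WP cells. The AM libraries were the lowest and the 6WP libraries the highest, with no overlap between groups. The log2 fold change was 0.54 ± 0.14 (adjusted p = 0.0325) in 6WP against AM cells, 0.27 (adjusted p = 0.302) against WT cells and -0.27 (adjusted p = 0.217) in AM against WT cells. Without 6WP replicate 2 the difference from AM cells was 0.31. The call was lost without any one of the WT or AM libraries, with adjusted p-values of up to 0.215, and when 6WP and AM cells were fitted on their own. HOXB13, a homeobox factor that binds beside the receptor in prostate cells, had 538 and 613 CPM in WT, 437 and 531 CPM in AM and 579 and 719 CPM in 6WP cells. Its AM libraries were below the others, and 6WP and AM cells differed on the log2 scale by 0.42 ± 0.15 (adjusted p = 0.0826). Exons of FOXA1 overlap those of TTC6 on the opposite strand, and the strand setting of the counting is not given in the sources used here.

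The kallikreins did not move as 1 group. They are secreted serine proteases of seminal fluid, encoded side by side on chromosome 19, and KLK3 encodes the prostate-specific antigen. Of the 4 members, KLK2 was called higher in AM than in WT cells and lower in 6WP than in AM cells, while KLK3, KLK4 and KLK15 were called in no comparison. Of all genes, 7.74% and 9.68% were called in these directions. The promoter of KLK3 holds the closest match to an androgen response element among the members, followed by KLK2, FKBP5 and TRPM8, and the 30 bases around each match are shown so that the kallikrein elements can be compared with each other and with the rest. Capitals mark the 15 bases of the match. The sequences are from RefSeq on GRCh38.p14, written 5′ to 3′ on the strand of the gene, at chr19:50854737-50854766 (plus), chr19:50873255-50873284 (plus), chr6:35728781-35728810 (minus) and chr2:233917171-233917200 (plus).
KLK3: gtaattgcAGAACAGCAAGTGCTagctctc
KLK2: gtatgtgtGGAACAGCAAGTGCTggctctc
FKBP5: gtgggggcAGAAAAGCAGGGTCTcgggctt
TRPM8: tagcatttAAAATACCATGTTCActaatta

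The pattern searched was the half-site AGAACA, 3 bases of any kind and the reverse complement of the half-site, with 12 letters compared on both strands. Start sites are those of the RefSeq table. The match began 170 bases before the start site in KLK3 with 2 mismatches, 176 bases before it in KLK2, 219 in FKBP5 and 194 in TRPM8, each with 3 mismatches. The KLK2 start site used here lies inside the interval that GENCODE gives for KLK2, which includes a longer model, and 207 of the 250 bases before it are in annotated KLK2 exons, whereas 0 of those before KLK3 are in exons. At most 2 mismatches were found in 1 of the 25 members with a promoter in the RefSeq table and in 1.19% of 27305 promoters, and at most 3 mismatches in 4 of 25 members and in 9.34% of all. The half-site AGAACA alone, on either strand, was in 1 of 25 members (KLK3) and in 12.4% of all promoters, and the forkhead motif TGTTTAC was in 0 of 25 and in 2.98%. The 15 bases of KLK3 and KLK2 share 14 letters, and the 250 bases before these RefSeq start sites align with 79.2% identity over 259 columns. A match is a description of letters, and its absence says only that the letters are not in this window. Most known androgen response elements lie in enhancers, which were not searched. The members without a promoter entry were ADAMTS1, ELL2, FOLH1, HOXB13, NDRG1, TMPRSS2 and ZBTB10. The whole 250 bases before the start site of KLK3 (chr19:50854665-50854914, plus strand) are shown beside those of SLC45A3 (chr1:205680510-205680759, minus strand), a member that fell in AM cells and whose closest match had 6 mismatches. Capitals again mark the match in KLK3, and the SLC45A3 sequence is in lower case throughout.
KLK3: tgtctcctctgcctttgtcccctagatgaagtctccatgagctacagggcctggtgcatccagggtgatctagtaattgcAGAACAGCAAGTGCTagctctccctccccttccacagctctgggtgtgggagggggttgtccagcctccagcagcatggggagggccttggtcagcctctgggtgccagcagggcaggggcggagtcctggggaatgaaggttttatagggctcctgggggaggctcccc
SLC45A3: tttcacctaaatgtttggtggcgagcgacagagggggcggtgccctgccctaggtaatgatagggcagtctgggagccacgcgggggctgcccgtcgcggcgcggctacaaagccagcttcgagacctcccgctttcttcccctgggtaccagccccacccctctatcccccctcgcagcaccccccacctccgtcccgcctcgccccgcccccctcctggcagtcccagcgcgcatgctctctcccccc

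KLK2, at chr19:50861568-50880567, encodes a protease that cleaves the precursor of prostate-specific antigen. It had 39.6 and 38.0 CPM in WT, 61.8 and 74.2 CPM in AM and 47.5 and 48.9 CPM in 6WP cells. Both AM libraries were above every other library, and the 6WP libraries lay between the groups. KLK2 differed by 0.81 ± 0.12 (adjusted p = 0.00759) in AM against WT cells, -0.50 ± 0.12 (adjusted p = 0.0267) in 6WP against AM cells and 0.31 (adjusted p = 0.193) in 6WP against WT cells on the log2 scale. KLK3, at chr19:50854915-50860764, had 50.0 and 55.1 CPM in WT, 65.1 and 107 CPM in AM and 49.3 and 83.6 CPM in 6WP cells. Replicate 2 was the higher library in AM and 6WP cells, and the 6WP libraries lay on either side of the WT libraries. The log2 fold change of KLK3 in AM against WT cells was 0.71 ± 0.28 (adjusted p = 0.115), and without AM replicate 2 it was 0.29. KLK4, a protease that can activate other kallikreins, had 287 and 295 CPM in WT, 258 and 281 CPM in AM and 283 and 283 CPM in 6WP cells, and its log2 fold changes lay between -0.11 and 0.07. KLK15, a further protease of the cluster, had between 2.36 and 4.48 CPM with overlapping groups. Reads of KLK2 and KLK3, which are close paralogs, could have been divided between them by the authors' counting.

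The cell surface and transport genes held 5 of the 9 calls in AM against WT cells and 5 of the 13 calls in 6WP against AM cells. Of the 6 that were tested, 5 passed as lower in AM cells relative to WT and as higher in 6WP cells relative to AM, namely TMPRSS2, FOLH1, STEAP1, STEAP2 and SLC45A3, where 9.93% and 11.7% of all genes passed in these directions. The sixth, ABCC4, was called in neither comparison. In 6WP against WT cells 0 of the 6 were called by edgeR's quasi-likelihood test, by DESeq2 or by the exact and likelihood ratio tests, and at an unadjusted p under 0.05 1 was higher and 1 lower. The group median of the log2 fold change was -1.05 in AM against WT cells, 1.05 in 6WP against AM cells and -0.14 in 6WP against WT cells.

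TMPRSS2, a membrane serine protease that primes viral spike proteins and is fused to ETS genes in many prostate tumours, lies at chr21:41464300-41531116 (minus strand). It had 91.0 and 95.7 CPM in WT, 24.5 and 32.4 CPM in AM and 42.0 and 115.5 CPM in 6WP cells. The AM libraries were the lowest, and the 6WP libraries were far apart, with replicate 1 between AM and WT cells and replicate 2 above WT cells. The log2 fold change was -1.71 ± 0.40 (adjusted p = 0.0256) in AM against WT cells and 1.47 ± 0.39 (adjusted p = 0.0347) in 6WP against AM cells. The difference between 6WP and AM cells was 0.52 without 6WP replicate 2 and 2.01 without 6WP replicate 1. Against WT cells it was -0.25 (adjusted p = 0.749) and spanned -1.18 to 0.29 when single libraries were left out. Exons of TMPRSS2 overlap those of MX1 on the opposite strand.

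SLC45A3, or prostein, a prostate-restricted sugar transporter, lies at chr1:205657851-205680509 (minus strand) and shares no exonic base with another annotated gene. It had 471 and 504 CPM in WT, 129 and 192 CPM in AM and 311 and 562 CPM in 6WP cells. Both AM libraries were below every other library, and the 6WP libraries lay on either side of the WT libraries. Its log2 fold changes were -1.60 ± 0.28 (adjusted p = 0.0109) in AM against WT, 1.44 ± 0.28 (adjusted p = 0.0128) in 6WP against AM and -0.16 (adjusted p = 0.776) in 6WP against WT cells. Without 6WP replicate 2 the difference from AM cells was 0.92. Per kilobase of its canonical transcript, SLC45A3 held rank 5 of the 32 members in WT cells, rank 11 in AM cells and rank 5 in 6WP cells, with 144 ± 6.80, 47.4 ± 13.1, 129 ± 52.4 CPM per kb (mean ± SD, n = 2 each, in that order).

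The STEAP genes encode proteins of a metalloreductase family of the plasma membrane and endosome, and STEAP1 and STEAP2 are neighbours on chromosome 7, at chr7:90154456-90164829 and chr7:90167590-90238137. STEAP1 had 191 and 169 CPM in WT, 78.4 and 100.2 CPM in AM and 166 and 164 CPM in 6WP cells. The 6WP libraries nearly coincided and lay just under the WT libraries, with the AM libraries far below. Its log2 fold change was -1.01 ± 0.14 (adjusted p = 0.00573) in AM against WT and 0.89 ± 0.14 (adjusted p = 0.00672) in 6WP against AM cells, and the call in 6WP against AM cells was lost only without AM replicate 1 (adjusted p = 0.0766) among the alternatives run. STEAP2 had 293 and 298 CPM in WT, 135 and 143 CPM in AM and 184 and 364 CPM in 6WP cells. Here 6WP replicate 1 was between AM and WT cells and replicate 2 above WT cells, and the difference between 6WP and AM cells of 0.98 ± 0.27 (adjusted p = 0.0354) was 0.37 without replicate 2. In AM against WT cells STEAP2 had -1.09 ± 0.27 (adjusted p = 0.0298). STEAP4 held between 3 and 10 counts per library, which is at most 0.446 CPM, and was not tested.

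FOLH1 encodes prostate-specific membrane antigen, a carboxypeptidase used as a target of imaging agents, and lies at chr11:49145092-49208638 (minus strand). It had 301 and 313 CPM in WT, 197 and 191 CPM in AM and 339 and 502 CPM in 6WP cells. The order was AM, WT and 6WP without overlap. On the log2 scale FOLH1 differed by -0.66 ± 0.17 (adjusted p = 0.0360) in AM against WT, 1.11 ± 0.17 (adjusted p = 0.00670) in 6WP against AM and 0.45 (adjusted p = 0.175) in 6WP against WT cells. ABCC4, an exporter of cyclic nucleotides and prostaglandins, had 21.2 and 19.1 CPM in WT, 14.5 and 13.4 CPM in AM and 11.9 and 17.1 CPM in 6WP cells. Both AM libraries and both 6WP libraries were below the WT libraries, with -0.53 (adjusted p = 0.0857) and -0.47 (adjusted p = 0.192) on the log2 scale. TRPM8, a cold-sensing ion channel, had 0 counts in every library, which allows a level of up to 0.138 CPM.

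**Figure D2:**
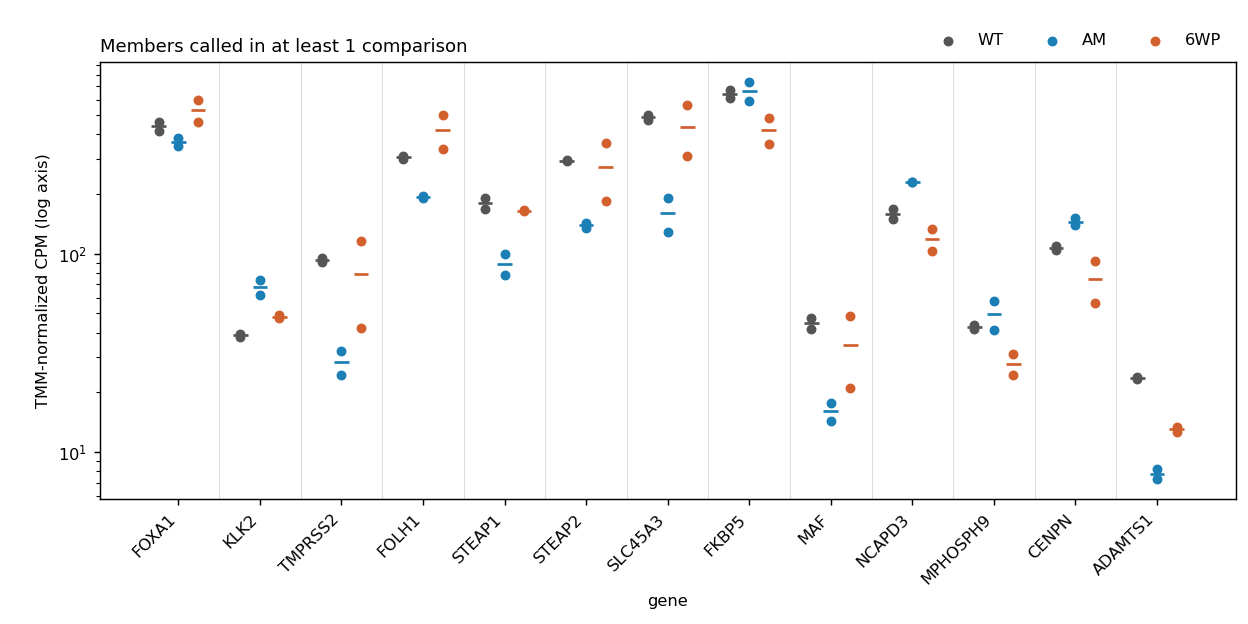
TMM-normalized CPM on a log axis of the 13 members called in at least 1 comparison, with a point for each library and a bar at the group mean (WT grey, AM blue, 6WP orange). The AM points are the lowest for FOXA1, TMPRSS2, FOLH1, STEAP1, STEAP2, SLC45A3, MAF and ADAMTS1, and the highest for KLK2, NCAPD3 and CENPN.

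Of the 6 signalling and feedback genes, FKBP5 was called lower in 6WP than in AM cells (9.68% of all genes were) and the other 5 were called in no comparison. FKBP5 encodes a co-chaperone of steroid receptors that is induced by androgen and by glucocorticoid, and lies at chr6:35573585-35728583 (minus strand). It had 668 and 609.5 CPM in WT, 589.8 and 734 CPM in AM and 358 and 487 CPM in 6WP cells. Both 6WP libraries were below all others, while AM and WT cells overlapped. The log2 fold change was -0.65 ± 0.17 (adjusted p = 0.0331) in 6WP against AM, -0.60 ± 0.17 (adjusted p = 0.0996) in 6WP against WT and 0.05 (adjusted p = 0.852) in AM against WT cells. TSC22D3 encodes GILZ, a leucine zipper protein also induced by both hormones, and had 37.1 and 36.4 CPM in WT, 35.7 and 46.9 CPM in AM and 52.0 and 72.0 CPM in 6WP cells. Its 6WP libraries were above all others, with 0.75 ± 0.19 (adjusted p = 0.0732) against WT and 0.58 ± 0.18 (adjusted p = 0.0573) against AM cells, both short of the threshold. Without 6WP replicate 2 these were 0.47 and 0.30, and the difference from AM cells passed in 8 of 16 alternatives. For FKBP5 and TSC22D3 the difference from WT cells passed with DESeq2, with either of the other edgeR tests and when genes needed just 1 count in total. It did not pass with any other scaling, with a replicate block or when only 6WP and WT cells were fitted.

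PMEPA1, which restrains TGF-beta signalling, had 327 and 355 CPM in WT, 304 and 332 CPM in AM and 324 and 679.7 CPM in 6WP cells. Replicate 2 of the 6WP cells stood 2.10 times above replicate 1, which was at the level of the other groups, and the log2 fold change against WT cells was 0.56 ± 0.29 (adjusted p = 0.293). NDRG1, a stress and hypoxia response gene, and CAMKK2, a kinase upstream of AMPK, had overlapping 6WP and WT groups and adjusted p-values in 6WP against WT cells of 0.792 and 0.737. PTGER4, a prostaglandin E receptor, had 8.80 and 8.50 CPM in WT, 7.45 and 8.51 CPM in AM and 5.13 and 6.87 CPM in 6WP cells. Both 6WP libraries of PTGER4 were below all others, with a log2 fold change of -0.53 ± 0.20 (adjusted p = 0.177) against WT cells. Exons of TSC22D3 and PMEPA1 overlap those of NCBP2L and NKILA on the opposite strand.

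Among the 4 transcription and elongation genes, MAF was called in 2 comparisons, lower in AM than in WT cells (9.93% of all genes) and higher in 6WP than in AM cells (11.7%). MAF is a basic leucine zipper factor at chr16:79585843-79600737 (minus strand). It had 41.8 and 47.5 CPM in WT, 14.4 and 17.6 CPM in AM and 21.0 and 48.7 CPM in 6WP cells. The AM libraries were the lowest, 6WP replicate 1 was just above them and 6WP replicate 2 was above WT cells. MAF had log2 fold changes of -1.48 ± 0.34 (adjusted p = 0.0250) in AM against WT and 1.12 ± 0.34 (adjusted p = 0.0492) in 6WP against AM cells, and the second was 0.35 without 6WP replicate 2. With DESeq2 size factors the adjusted p of that difference was 0.0514. ELL2, an elongation factor of the super elongation complex, had 409 and 376 CPM in WT, 379 and 376 CPM in AM and 322 and 276 CPM in 6WP cells. Both 6WP libraries were below the others, with -0.39 ± 0.12 (adjusted p = 0.104) against WT and -0.34 (adjusted p = 0.0719) against AM cells. EAF2, a partner of ELL proteins, had at most 3.08 CPM, and ZBTB10, a zinc finger repressor, had between 550.4 and 733 CPM, with no call for either.

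Of the 8 other androgen-responsive genes, 4 differed between 6WP and AM cells, and 3 of these, NCAPD3, CENPN and MPHOSPH9, were lower in 6WP cells. Over all tested genes 21.3% were called in this comparison, and 9.68% were called lower. NCAPD3 encodes a subunit of condensin II and had 168 and 149 CPM in WT, 230.4 and 231 CPM in AM and 133 and 103 CPM in 6WP cells. The AM libraries were the highest and the 6WP libraries the lowest, with -0.96 ± 0.14 (adjusted p = 0.00558) in 6WP against AM and 0.54 ± 0.14 (adjusted p = 0.0357) in AM against WT cells. The rise in AM cells passed neither with upper quartile normalization nor with library size only (adjusted p = 0.0582 and 0.0649). CENPN, a centromere protein, had 104 and 109 CPM in WT, 151 and 139 CPM in AM and 92.1 and 56.7 CPM in 6WP cells. Its order was the same as that of NCAPD3, with -0.96 ± 0.20 (adjusted p = 0.0163) in 6WP against AM and 0.44 (adjusted p = 0.158) in AM against WT cells. MPHOSPH9, a centriole protein, had 43.9 and 41.8 CPM in WT, 57.8 and 41.0 CPM in AM and 31.4 and 24.5 CPM in 6WP cells. The 6WP libraries were below the others, with -0.82 ± 0.19 (adjusted p = 0.0211) against AM and -0.62 (adjusted p = 0.111) against WT cells. Exons of CENPN and of NCAPD3 overlap other genes on the opposite strand, among them CMC2 and JAM3, and those of MPHOSPH9 and CENPN overlap unnamed loci on the same strand.

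ADAMTS1 was the 1 member called in all 3 comparisons. It encodes a secreted metalloprotease that cleaves proteoglycans and lies at chr21:26835755-26845409 (minus strand), with no exon of another annotated gene over its exons. It had 23.3 and 23.8 CPM in WT, 7.28 and 8.18 CPM in AM and 12.7 and 13.3 CPM in 6WP cells. The groups did not overlap, and each pair of replicates lay close together. Log2 fold changes were -1.60 ± 0.14 (adjusted p = 0.00179) in AM against WT, -0.86 ± 0.14 (adjusted p = 0.0242) in 6WP against WT and 0.75 ± 0.14 (adjusted p = 0.0125) in 6WP against AM cells. In AM against WT cells it was the 1 member that passed under each of the 16 alternatives run, with the adjusted p reaching 0.0428. In 6WP against WT cells its adjusted p was over 0.05 when only these groups were fitted and without any one of the WT or AM libraries, reaching 0.315, while the log2 fold change stayed between -0.92 and -0.84.

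RAB3B, a small GTPase of secretory vesicles, had 42.7 and 45.6 CPM in WT, 31.3 and 33.8 CPM in AM and 20.9 and 32.2 CPM in 6WP cells. The WT libraries were above all others, and the log2 fold change was -0.73 ± 0.19 (adjusted p = 0.0812) in 6WP against WT and -0.44 (adjusted p = 0.143) in AM against WT cells. Its difference between 6WP and WT cells passed in 6 of 16 alternatives, the Wald test of DESeq2 among them, and was -0.47 without 6WP replicate 1 and -1.10 without 6WP replicate 2. HERC3, a ubiquitin ligase, C1orf116, or SARG, an androgen-regulated gene of unclear function, and UAP1, an enzyme of UDP-GlcNAc synthesis, were called in no comparison. Their log2 fold changes in 6WP against WT cells were -0.18, -0.14 and -0.13.

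**Figure D3:**
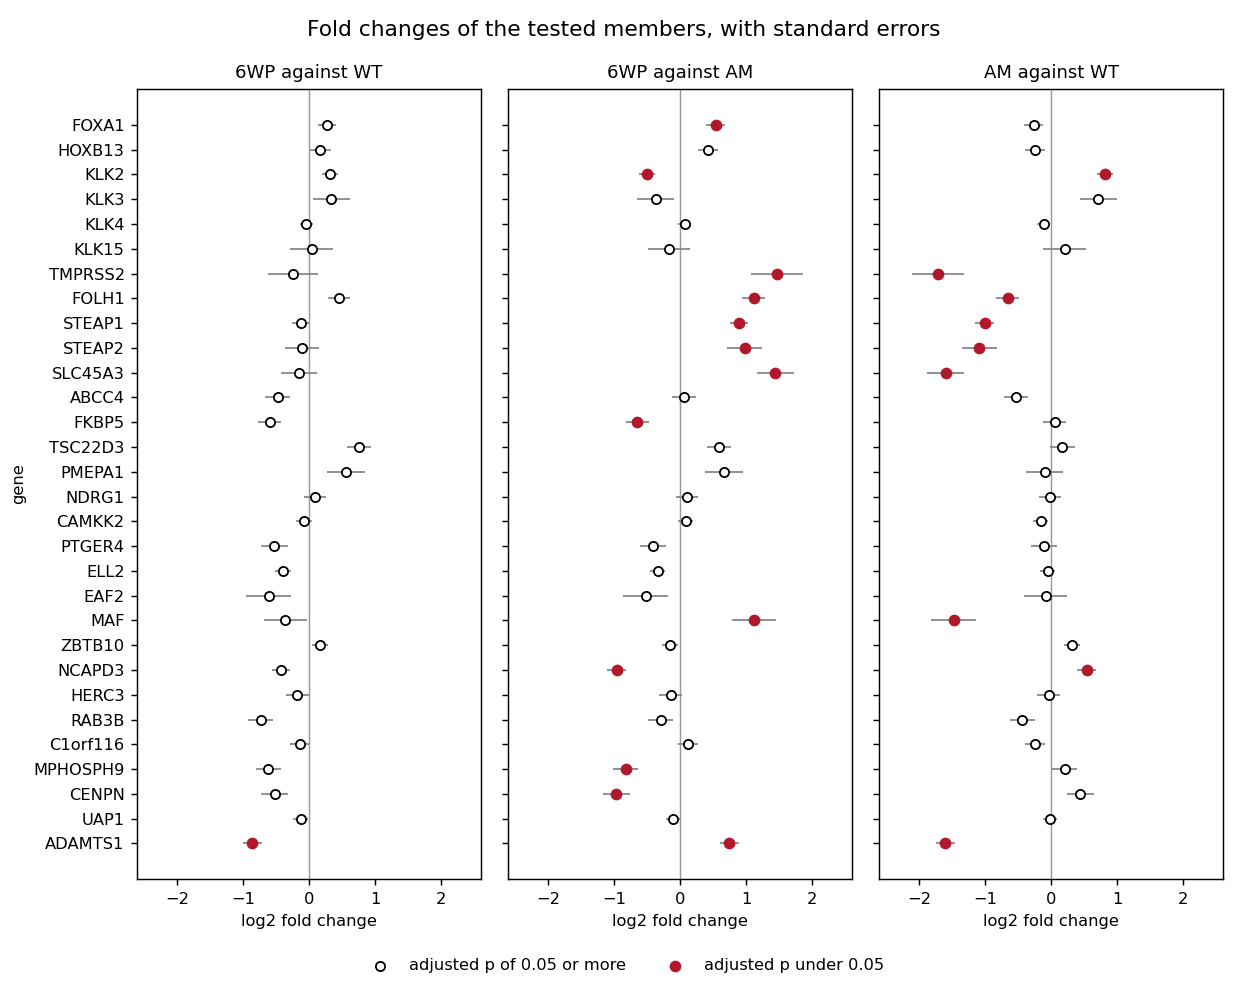
Log2 fold changes (points) with standard errors (bars) of the 30 tested members in the comparisons of 6WP with WT, 6WP with AM and AM with WT cells, with filled red points for an adjusted p under 0.05. 1 filled point lies in the first panel (ADAMTS1), 13 in the second and 9 in the third.

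**Figure D4:**
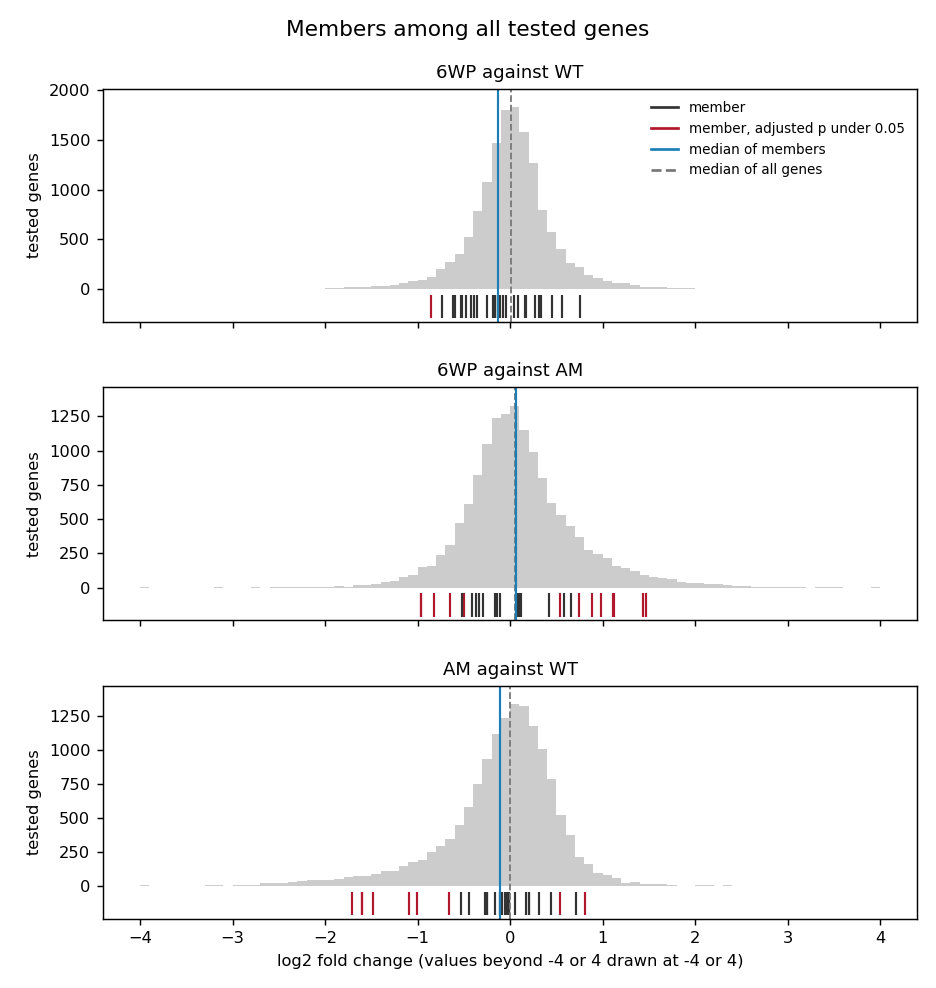
Distribution of log2 fold changes over all 14672 tested genes (grey bars, number of genes) in the 3 comparisons, with each tested member as a tick under the axis. The members' median (blue line) lies at -0.13, 0.06 and -0.11 from top to bottom, and called members (red ticks) reach from -0.96 to 1.47 in 6WP against AM cells and from -1.71 to 0.81 in AM against WT cells.

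The 6WP replicates differed in the same sense for most members. In 6WP replicate 2, 23 of the 30 tested members (76.7%) were higher than in replicate 1, where 49.4% of all tested genes were, and 7 members were over 1.5 times higher. The ratio of replicate 2 to replicate 1 was 2.75 for TMPRSS2, 2.32 for MAF, 2.10 for PMEPA1, 1.98 for STEAP2, 1.81 for SLC45A3, 1.70 for KLK3 and 1.54 for RAB3B. The ratios of KLK4, STEAP1, KLK2 and ADAMTS1 were 1.00, 0.991, 1.03 and 1.05, and those of CENPN and KLK15 were 0.616 and 0.527. Against the mean of the WT libraries, the median member stood at -0.23 in 6WP replicate 1 and at 0.04 in replicate 2 on the log2 scale, where the median of all tested genes was 0.01 in both. In AM replicates 1 and 2 the median member stood at -0.17 and -0.06. The summed neuroendocrine markers were 269.5 and 275 CPM in WT, 331 and 352 CPM in AM and 334 and 361 CPM in 6WP cells, and the part of these in the members' differences was not tested. A single marker held up to 8273 counts in a library, so the sums do not weigh the 8 markers evenly. When 6WP replicate 1 was left out, STEAP2 in 6WP against WT cells changed from -0.11 to 0.29 on the log2 scale.

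**Figure D5:**
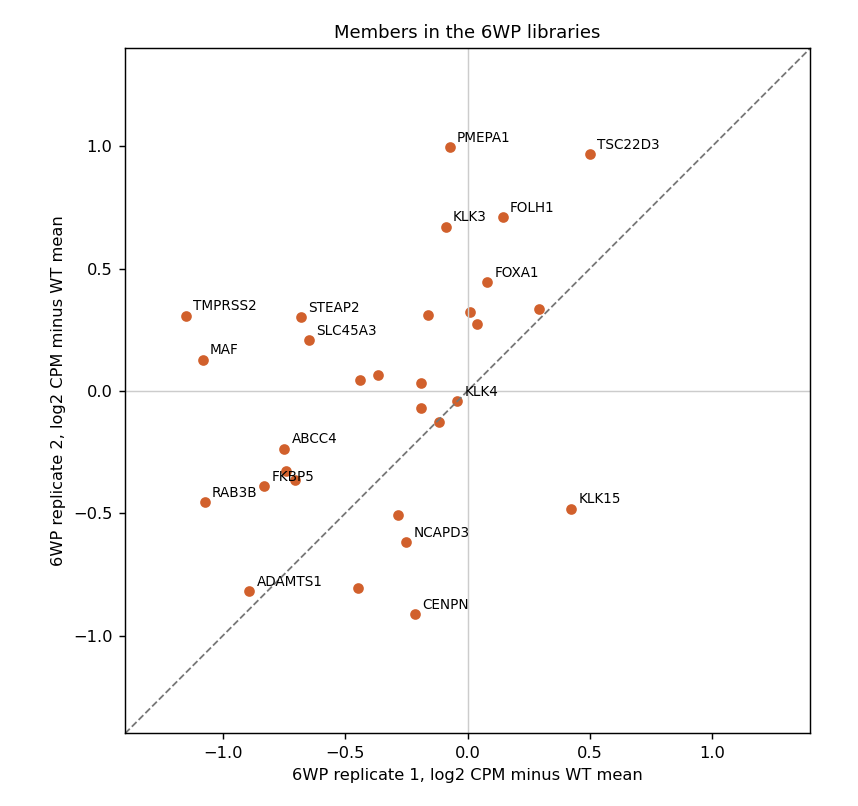
Log2 CPM of each tested member in 6WP replicate 1 (horizontal) and replicate 2 (vertical) as the difference from the mean of the WT libraries, with equal values on the dashed line. Most points lie above the line, and TMPRSS2, MAF, STEAP2 and SLC45A3 are below 0 in replicate 1 and above 0 in replicate 2.

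Compared between genes per kilobase of the canonical transcript, KLK4 had the highest level of the members in WT cells, followed by HOXB13 and FKBP5. The levels were 206 ± 3.86, 190.2 ± 11.4, 199.7 ± 0.0509 CPM per kb for KLK4, 189 ± 17.6, 159 ± 21.8, 214 ± 32.7 for HOXB13 and 170.3 ± 11.0, 176 ± 27.1, 113 ± 24.3 for FKBP5 in WT, AM and 6WP cells (mean ± SD, n = 2 each). The SDs of KLK4 and HOXB13 in WT cells reach each other, so the order of these neighbours is not settled by their spread. The same holds for HOXB13 and FKBP5 in WT cells and for KLK4, FKBP5 and HOXB13 in AM cells. FKBP5 held rank 3 in WT, rank 2 in AM and rank 6 in 6WP cells. TMPRSS2 had 27.1 ± 0.964, 8.25 ± 1.60, 22.8 ± 15.1 CPM per kb and held rank 18, 21 and 18, and KLK3 had 35.9 ± 2.43, 58.7 ± 20.2, 45.4 ± 16.6 and held rank 14, 10 and 12. These levels rest on 1 transcript length per gene.

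The receptor's partners were described with a list of 34 tested chaperones and coregulators. In 6WP against AM cells 6 of these were lower and 3 higher, in AM against WT cells 5 were higher and 5 lower, and in 6WP against WT cells 1 was lower and 0 were higher (2 higher at an unadjusted p under 0.05, and 0 by DESeq2 and by edgeR's exact and likelihood ratio tests). These calls make up 26.5%, 29.4% and 2.94% of the list, beside 21.3%, 17.7% and 3.00% of all genes. FKBP4, the co-chaperone needed for a responsive receptor, had 594 and 589 CPM in WT, 810.2 and 794 CPM in AM and 472 and 505 CPM in 6WP cells. Its AM libraries were the highest and its 6WP libraries the lowest, with -0.72 ± 0.10 (adjusted p = 0.00546) in 6WP against AM and 0.44 (adjusted p = 0.0258) in AM against WT cells. STIP1, which joins HSP70 to HSP90, had 229 and 227 CPM in WT, 316 and 306 CPM in AM and 206 and 206 CPM in 6WP cells and log2 fold changes of -0.60 (adjusted p = 0.00740) and 0.45 (adjusted p = 0.0208) in the same comparisons. NCOR1, a corepressor, went the other way, with 192 and 204 CPM in WT, 145 and 139.8 CPM in AM and 187 and 225 CPM in 6WP cells. Its log2 fold change was 0.53 (adjusted p = 0.0200) in 6WP against AM and -0.47 (adjusted p = 0.0322) in AM against WT cells. FOXO1, a factor that can inhibit the receptor, was the 1 gene of the list that passed in 6WP against WT cells, at -0.82 (adjusted p = 0.0328) on the log2 scale. It was lower in AM than in WT cells too, at -0.88 (adjusted p = 0.00985), and differed by 0.06 (adjusted p = 0.793) between 6WP and AM cells.

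Of 71 further tested genes of the androgen response, 12 were higher and 12 lower in AM than in WT cells, 9 higher and 10 lower in 6WP relative to AM cells, and 1 higher and 2 lower in 6WP relative to WT cells. The called shares were 33.8%, 26.8% and 4.23% in that order, beside 17.7%, 21.3% and 3.00% of all genes, and the median log2 fold changes were -0.06, -0.05 and -0.08. SAT1, an enzyme of polyamine breakdown, had 37.9 and 37.0 CPM in WT, 17.7 and 17.3 CPM in AM and 25.8 and 29.9 CPM in 6WP cells, which was lowest in AM cells with -1.09 (adjusted p = 0.00357) against WT cells and 0.67 (adjusted p = 0.0122) in 6WP against AM cells. LIFR, a cytokine receptor, had -1.68 (adjusted p = 0.00658) in AM against WT cells. CCND3, a cyclin of the G1 phase, was highest in AM cells, with 41.7 and 40.9 CPM in WT, 74.0 and 86.1 CPM in AM and 44.3 and 35.3 CPM in 6WP cells and 0.96 (adjusted p = 0.00736) against WT cells. ABHD2, a lipase, was below WT cells in both 6-week groups, with 434 and 451 CPM in WT, 230.2 and 199.6 CPM in AM and 185 and 251 CPM in 6WP cells and -1.02 (adjusted p = 0.0192) in 6WP against WT cells.

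Further lists of genes that share regulators or position with the members were counted in the same fit. Of 15 androgen-responsive genes of sterol and fatty acid metabolism, 6 were lower in 6WP than in WT cells, 13 lower in 6WP than in AM cells and 3 higher in AM than in WT cells. In these directions 1.37%, 9.68% and 7.74% of all genes were called. In 6WP against WT cells 0 were higher by edgeR's quasi-likelihood test, at an unadjusted p under 0.05 or by the other 3 tests. HMGCS1, the enzyme before HMG-CoA reductase, had 571 and 502 CPM in WT, 565 and 523 CPM in AM and 193 and 144 CPM in 6WP cells, with both 6WP libraries below all others. Of 13 tested targets and regulators shared with the glucocorticoid receptor, which include FKBP5 and TSC22D3, 4 were higher and 1 lower in 6WP than in AM cells, 1 higher and 4 lower in AM than in WT cells, and 1 higher in 6WP than in WT cells. This is 38.5%, 38.5% and 7.69% of the list, beside 21.3%, 17.7% and 3.00% of all genes. In 6WP against WT cells the exact and likelihood ratio tests each called 4 higher and 1 lower, where they called 9.67% and 10.2% of all genes. NR3C1, the glucocorticoid receptor gene, had 27.8 and 27.6 CPM in WT, 11.4 and 12.7 CPM in AM and 26.3 and 16.9 CPM in 6WP cells, with -1.20 (adjusted p = 0.0107) in AM against WT and 0.84 (adjusted p = 0.0265) in 6WP against AM cells. KLF9 had 62.7 and 63.6 CPM in WT, 25.1 and 31.2 CPM in AM and 55.3 and 76.8 CPM in 6WP cells, with the AM libraries lowest and the 6WP libraries on either side of the WT libraries, while DDIT4, an inhibitor of mTORC1, was above WT cells in both 6-week groups, with log2 fold changes of 0.92 (adjusted p = 0.0118) in AM and 1.92 (adjusted p = 0.00448) in 6WP cells. Of the 7 tested neighbours in the kallikrein cluster, 1 was called in AM against WT cells, as higher (14.3%, beside 17.7% of all genes). In 6WP against AM cells 1 was higher and 1 lower (28.6%, beside 21.3% of all genes). KLK1 was the neighbour higher in AM than in WT cells, with 22.3 and 20.4 CPM in WT, 33.3 and 33.9 CPM in AM and 23.9 and 23.6 CPM in 6WP cells and 0.65 (adjusted p = 0.0122). KLK11 had 5.85 and 6.57 CPM in WT, 3.62 and 4.12 CPM in AM and 7.12 and 12.3 CPM in 6WP cells, with 1.32 (adjusted p = 0.0155) in 6WP against AM cells.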

How the data were processed

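Total RNA of 6 samples was made into libraries with a stranded TruSeq protocol and sequenced. The deposited values are whole-number counts per gene symbol that the authors made without normalization. The submitters' processing notes name STAR 2.5.3a, featureCounts 1.5.3, Subread, StringTie 1.3.3, edgeR 3.22.3, R 3.5.0 and hg38. The annotation and the strand setting of the counting are not given in the sources used here. Groups were taken from the labels, and 0 columns of per-sample values were left out.

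Counts were filtered with filterByExpr, scaled by TMM and fitted across all 6 libraries without covariates by edgeR's quasi-likelihood test (edgeR 4.0.16, limma 3.58.1, R 4.3.3). P-values were adjusted by the Benjamini-Hochberg method over all tested genes, and called means an adjusted p under 0.05. Standard errors were obtained by dividing each log2 fold change by the root of its F statistic. The procedure was tested on counts simulated with the same spread in every group. That test does not cover the wider spread between the 6WP replicates. The members and the other lists were chosen with earlier results of these data known. All 32 members were named, and of each other list the genes called in at least 1 comparison, at most 3 by smallest p per direction and comparison, or any gene of a list of at most 8 tested genes. The receptor gene is not reported here.

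Gene positions and exon overlaps were taken from GENCODE on GRCh38, and promoters from RefSeq on GRCh38.p14, where 25 of 32 symbols matched. Alternatives were other scalings, other filters, the Wald test of DESeq2 (1.42.0), the exact and likelihood ratio tests of edgeR, a replicate block, fits of only the groups compared, and each library left out. The total counts of 21222201 to 35311945 limit precision most for members with few counts, with a floor of 3 counts.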

Additional observations from a re-analysis of the deposited data

How the results depend on the processing

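With 2 libraries per group the numbers of called members moved most when a library was left out. Of the values of single members under alternatives, 1264 stayed on their side of the threshold, 87 lost and 88 gained a call, and 1 reversed: STEAP2 in 6WP against WT cells was 0.29 on the log2 scale without 6WP replicate 1 and -0.71 without 6WP replicate 2. The 23 called values kept their sign under all 16 alternatives, and of 1072 values of uncalled results 36 had the other sign. Leaving out libraries in turn gave 0 to 14 called members in 6WP against WT, 0 to 20 in 6WP against AM and 1 to 17 in AM against WT cells. The lone library left in a group was then assumed to vary like the other groups. In 6WP against WT cells the number was 4 with no filter beyond 1 count in total, 6 with the Wald test of DESeq2, 5 with the exact test, 5 with the likelihood ratio test and 0 when only these groups were fitted. The shares of all genes called in these fits were 4.37%, 7.66%, 9.67%, 10.2% and 0.661%, in that order. Fitting only the groups compared gave 5 called members in 6WP against AM and 17 in AM against WT cells, the second from a spread set without the 6WP libraries. Upper quartile normalization put the median of all genes at 0.14 in 6WP against AM and at -0.09 in AM against WT cells on the log2 scale. For all other changes the cause was not tested.

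With the replicate number as a replicate block, 1 member was called in 6WP against WT, 15 in 6WP against AM and 10 in AM against WT cells. These are 3.33%, 50% and 33.3% of the tested members, beside 2.68%, 20.9% and 16.9% of all genes. For libraries that carry the same number, departures from the group mean correlated across genes at 0.0395, 0.0873 and -0.0206. These values belong to WT with AM, WT with 6WP and AM with 6WP cells, in that order. Whether such libraries were cultured or processed together was not tested. STEAP4 and TRPM8 were too low to test, and EAF2 and KLK15 had standard errors of at least 0.32. TMPRSS2 and MAF, which had more counts, had standard errors of at least 0.383 and 0.328.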

Other observations

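A short list of genes that androgen lowers in prostate cells had 3 tested members. UGT2B15, which conjugates androgen to glucuronic acid, had 52.5 and 55.1 CPM in WT, 132 and 101 CPM in AM and 123 and 92.6 CPM in 6WP cells. Both 6-week groups were above WT cells, with log2 fold changes of 1.12 ± 0.18 (adjusted p = 0.00803) in AM and 1.00 ± 0.18 (adjusted p = 0.0294) in 6WP cells (edgeR's quasi-likelihood test), while AM and 6WP cells overlapped and differed by -0.11 (adjusted p = 0.669). Reads of UGT2B15 could have been divided with its paralogs by the authors' counting. The other members, UGT2B17 and CAMK2N1, were not called in any comparison by the quasi-likelihood test. In 6WP against WT cells the log2 fold changes of this list lay between 0.04 and 1.38, and in AM against WT cells between -0.15 and 1.12. The exact and likelihood ratio tests each called 2 of the list higher in 6WP than in WT cells, and DESeq2 called 1. These 3 tests called 9.67%, 10.2% and 7.66% of all genes in that comparison.

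Of the 6 tested luminal epithelial markers, KRT8 and CLDN4 were lower and KRT19 higher in AM than in WT cells, where 9.93% of all genes were called lower and 7.74% higher. KRT8, a keratin of luminal cells, had 250.2 and 274 CPM in WT, 140.1 and 165 CPM in AM and 227 and 178 CPM in 6WP cells and a log2 fold change of -0.78 (adjusted p = 0.0132) in AM against WT cells. KRT19 had 23.3 and 26.5 CPM in WT, 46.7 and 69.2 CPM in AM and 27.3 and 29.5 CPM in 6WP cells, with 1.22 (adjusted p = 0.00765), and it also belongs to the androgen response list. Of 5 tested neuroendocrine markers, CHGA, SCG3 and SYP were higher in 6WP than in WT cells, where 1.63% of all genes were called higher. SYP, a synaptic vesicle protein, had 35.0 and 37.9 CPM in WT, 52.8 and 56.8 CPM in AM and 58.5 and 65.3 CPM in 6WP cells, with 0.77 (adjusted p = 0.0199) in 6WP and 0.59 (adjusted p = 0.0159) in AM cells against WT cells. CHGA, a granin, had 1.43 and 2.21 CPM in WT, 4.48 and 3.80 CPM in AM and 5.32 and 17.5 CPM in 6WP cells and 2.65 (adjusted p = 0.0450) in 6WP against WT cells.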
